A study of Mus musculus with 6 samples.

Results

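The receptors Trem1, Trem2 and Treml4 and their signaling adaptor Tyrobp were examined in CD45+ cells of the inflamed mouse synovium. They are 4 of the 20394 genes in the deposited count table and were picked by their symbols. Chromium 3′ single-cell RNA sequencing had been run on 6 samples of CD45+ cells sorted from digested synovium. Samples of both groups, PBS (n = 2) and PEPITEM (n = 4), came from C57BL/6 mice with antigen-induced arthritis, bought as males aged 8 weeks. Every mouse had been immunised under the skin with 10 μg methylated bovine serum albumin (mBSA) in complete Freund's adjuvant and challenged in the knee with 100 μg mBSA on day 21. From the challenge on, the mice received either vehicle (PBS) or 300 μg PEPITEM, a peptide that limits leukocyte migration, and the cells were taken 3 days after the challenge. The table pools all samples, and its barcodes end in a library number from 1 to 6 that no source used here links to a sample. Vehicle and PEPITEM were therefore not compared, and values are given over all libraries and per library, with no test and no standard deviation.

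The TREM receptors (triggering receptors expressed on myeloid cells) are immunoglobulin-like surface proteins with short cytoplasmic tails. They signal through Tyrobp (DAP12), a small transmembrane adaptor whose phosphorylated tyrosine motif recruits the kinase Syk. TREM-1 is known to amplify cytokine release by neutrophils and monocytes. TREM-2 binds lipids and lipoproteins and supports phagocytosis and survival of macrophages, and TREML4 is a receptor of nonclassical monocytes and some macrophages that binds late apoptotic and necrotic cells. In arthritis, both TREM-1 and macrophage TREM-2 have been studied as regulators of synovial inflammation.

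The 3 receptor genes lie in 1 cluster of the plus strand of mouse chromosome 17 (GRCm38, GENCODE annotation). Trem1 spans chr17:48232768-48246924, Treml4 spans chr17:48264295-48275360 and Trem2 spans chr17:48346401-48354147. Trem3, Treml2 and Treml1 lie in the same cluster, which runs over 134409 bases from the start of Trem1 to the end of Treml1. Tyrobp is on another chromosome, at chr7:30413760-30417585 on the plus strand, 126 bases from the related adaptor gene Hcst (DAP10). The 250 bases before the RefSeq start of each receptor gene (GRCm38.p6, plus strand) are printed because the 3 neighboring genes differed in the cells that held their RNA. They cover chr17:48232489-48232738 for Trem1, chr17:48346151-48346400 for Trem2 and chr17:48264045-48264294 for Treml4. Capitals mark the letters of 3 myeloid motifs searched on both strands, the PU.1 core GAGGAA, the C/EBP motif TTNCNNAA and the AP-1 motif TGANTCA.
Trem1: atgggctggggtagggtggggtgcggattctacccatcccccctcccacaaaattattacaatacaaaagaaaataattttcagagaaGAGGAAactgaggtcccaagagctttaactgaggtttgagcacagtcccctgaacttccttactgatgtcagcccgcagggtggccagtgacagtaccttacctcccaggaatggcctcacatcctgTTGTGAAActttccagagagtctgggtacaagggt
Trem2: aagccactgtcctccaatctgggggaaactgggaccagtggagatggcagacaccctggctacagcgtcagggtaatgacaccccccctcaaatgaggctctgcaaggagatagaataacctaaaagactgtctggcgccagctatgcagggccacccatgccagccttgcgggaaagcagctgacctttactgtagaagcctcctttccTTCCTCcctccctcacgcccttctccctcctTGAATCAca
Treml4: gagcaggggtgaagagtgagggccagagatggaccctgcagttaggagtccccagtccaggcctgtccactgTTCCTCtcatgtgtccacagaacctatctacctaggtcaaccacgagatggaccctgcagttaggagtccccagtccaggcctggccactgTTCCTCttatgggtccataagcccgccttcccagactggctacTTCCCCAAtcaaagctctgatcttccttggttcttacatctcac

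The PU.1 letters were found in all 3 windows, at base -162 in Trem1, at -40 in Trem2 and at -178 and -87 in Treml4, counted from the RefSeq start. The C/EBP letters were found in Trem1 at -35 and in Treml4 at -44, and not in the Trem2 window. The AP-1 letters were found in Trem2 alone, at -9. Over all 32851 promoters of the table, windows of the same length held the PU.1 letters in 23.3%, the C/EBP letters in 36.8% and the AP-1 letters in 6.75%. These matches describe the letters and do not show binding.

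The table held 32953 cells, 2919 to 9345 per library, with 47273569 to 123367661 UMIs (unique molecular identifiers, which count single RNA molecules) per library and a median of 9923 to 14001 UMIs per cell. Of the barcode sequences, 138 occurred in 2 libraries. Cells were gated 1 by 1 on marker genes that include no member. The gates are named after their markers with "-like", since the cells were not sorted by type, and 20 of them with at least 50 cells are described. A further 2244 cells carried the markers of both neutrophils and mononuclear phagocytes. They were kept apart as mixed cells, had a median of 26291 UMIs, against 5142 in late neutrophil-like cells and 13480 in resident macrophage-like cells, and what part of them were doublets was not tested. Gates can hold misplaced cells: 2669 cells scored nearly the same for their best and next class. Levels are the UMIs of a gene per 1000000 UMIs of the gate (CPM), and a share of cells means cells with at least 1 UMI. Exact Poisson intervals of CPM and Wilson intervals of shares are at 95% and cover counting error only.

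Each receptor had its own leading class. Trem1 was highest in late neutrophil-like cells, Trem2 in resident macrophage-like cells and Treml4 in nonclassical monocyte-like cells. By CPM, Tyrobp shared its leading class with Trem1 and was also high in most other myeloid gates, plasmacytoid dendritic cell-like cells and NK cell-like cells. By UMIs per cell it did not lead there. Late neutrophil-like cells held 22.2 UMIs of Tyrobp per cell, against 45.0 in classical monocyte-like and 41.2 in inflammatory macrophage-like cells. Resident macrophage-like cells held 19.0. In all, 121311 UMIs of Trem1 were counted in 17560 cells, 38150 UMIs of Trem2 in 7811 cells, 5932 UMIs of Treml4 in 2789 cells and 826824 UMIs of Tyrobp in 26398 cells. The plot of levels by class shows that the leading gates of Trem1 and Treml4 stood clear of the next gate in every library, whereas the leading gates of Trem2 and Tyrobp overlapped their neighbors. How many of all genes lacked overlap was counted only for the gate comparisons given further below. Elsewhere a lack of overlap between gates is a description only.

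**Figure D1:**
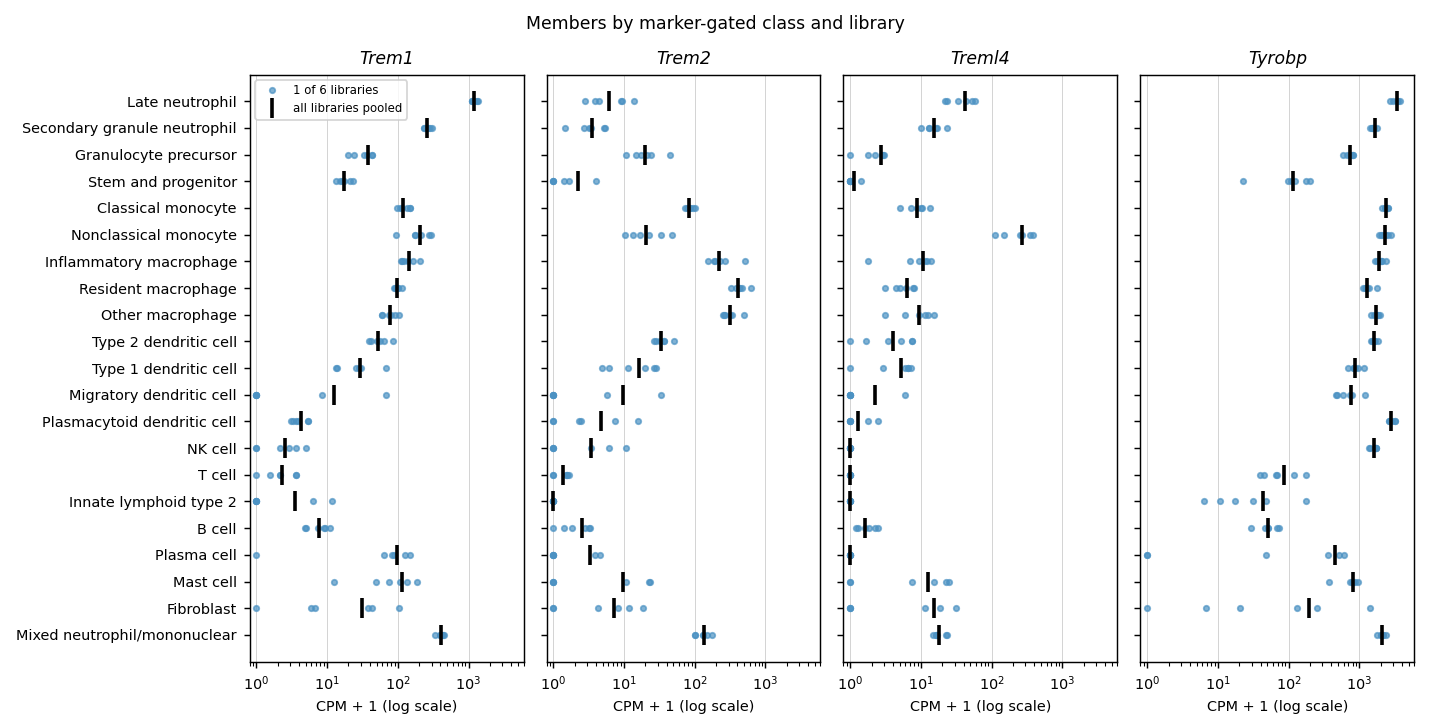
CPM + 1 on a log axis for each member (panels) in 20 marker-gated classes and the mixed cells (rows), with a point per library and a black bar for all libraries pooled. Trem1 stands apart in late neutrophils at 1176 CPM, Trem2 in the macrophage gates and Treml4 in nonclassical monocytes, while Tyrobp is near or above 1000 CPM in most myeloid classes.

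Trem1, the amplifying receptor of granulocytes and monocytes, was at 1176 CPM in 6589 late neutrophil-like cells (interval 1165 to 1186), with 1115 CPM in the lowest library, a median library of 1184 CPM and 1346 CPM in the highest. Every library of this gate lay above every library of any other gate. It was followed by secondary granule neutrophil-like cells, which express the genes of granules made in the marrow, at 260 CPM (libraries 233 to 305, median 268). Nonclassical monocyte-like cells were at 207 CPM (92.7 to 297), inflammatory macrophage-like cells at 145 CPM (112 to 203) and classical monocyte-like cells at 116 CPM (95.1 to 148). These 3 gates overlapped between libraries, and the nonclassical gate also overlapped the secondary granule gate. Resident macrophage-like cells (95.6 CPM) and the remaining macrophages (76.7 CPM) overlapped as well. Mast cell-like cells (115 CPM, 11.3 to 188) and plasma cell-like cells (97.3 CPM, 0 to 149) held similar levels. Both also held the neutrophil gene S100a8, at 10304 and 12443 CPM, and nonclassical monocyte-like cells held it at 1844 CPM. The part of neutrophil RNA in the Trem1 of these gates was not tested. Granulocyte precursor-like cells, which express Mpo and Elane, were at 37.0 CPM (19.0 to 42.5). The order within the granulocyte gates thus ran from precursors through secondary granule cells to late cells, with no overlap between libraries at either step. From secondary granule to late cells, 27.8% of 5825 genes were higher without overlap. For the step from precursors no such share was counted, so this order is a description only.

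Trem1 was detected in 94.1% of late neutrophil-like cells (93.5 to 94.7). With every cell thinned to 2500 UMIs, which left out 403 cells of the gate, the share was 86.6%. The share in secondary granule neutrophil-like cells was 84.5%, or 43.9% after thinning, and their median depth was 15438 UMIs against 5142. In B cell-like cells, which should lack the gene, it was 2.40%, or 1.05% after thinning, at a median of 5751 UMIs. Trem1 in T cell-like cells rested on 13 UMIs (1.27 CPM).

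Trem2, the lipid-sensing receptor, had its 3 highest gates in macrophages, with 331 CPM over all 3752 macrophage-like cells (libraries 249 to 555, median 331). Resident macrophage-like cells, gated on genes such as Lyve1, Cd163 and Vsig4, were at 413 CPM (interval 406 to 420), with a lowest library of 327, a median of 427 and a highest of 627 CPM. The macrophages of neither program were at 318 CPM (251 to 495), and inflammatory macrophage-like cells, gated on genes such as Arg1 and Cxcl9, were at 220 CPM (151 to 516). Library 2 was highest in each of these gates, with 627, 495 and 516 CPM, from 108, 96 and 56 cells. Classical monocyte-like cells followed at 82.7 CPM (71.6 to 99.6) without overlap with any macrophage gate. Type 2 dendritic cell-like cells were lower again at 31.8 CPM (25.2 to 50.6), also without overlap with classical monocyte-like cells.

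Trem2 was low in the cells that led for Trem1. Late neutrophil-like cells held 5.15 CPM (1.83 to 12.7) and secondary granule neutrophil-like cells 2.48 CPM, beside 1.52 CPM in B cell-like cells and 0.39 CPM in T cell-like cells. A Trem2 UMI was found in 86.1% of resident macrophage-like cells (84.5 to 87.5; 54.5% after thinning), in 76.4% of inflammatory macrophage-like cells (35.3% after thinning) and in 57.3% of classical monocyte-like cells (17.1% after thinning). The share in B cell-like cells was 0.29% (0.15% after thinning).

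Treml4, the receptor for dying cells, was at 265 CPM in 156 nonclassical monocyte-like cells (interval 239 to 293), which were gated on Ace, Cd300e, Spn, Adgre4, Eno3, Fabp4 and Nr4a1. The lowest library had 111 CPM, the median 257 CPM and the highest 378 CPM, from only 10 to 44 cells per library. All 6 values lay above those of the next gate, late neutrophil-like cells at 41.1 CPM (20.5 to 56.1). Secondary granule neutrophil-like cells had 14.4 CPM (8.86 to 22.1), which overlapped the late cells, and classical monocyte-like cells had 7.75 CPM (3.97 to 12.3). No UMI of Treml4 was counted in T cell-like, NK cell-like, type 2 innate lymphoid-like or plasma cell-like cells. For the 960 T cell-like cells, the interval around 0 reached 0.36 CPM. The share of nonclassical monocyte-like cells with Treml4 was 75.6% (68.3 to 81.7) and 47.4% after thinning, against 8.66% and 1.94% in classical monocyte-like cells.

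Tyrobp, the adaptor of all 3 receptors, was at 3455 CPM in late neutrophil-like cells, with libraries from 2707 through a median of 3399 to 3749 CPM. Plasmacytoid dendritic cell-like cells followed at 2795 CPM (2654 to 3209), which overlapped the late neutrophils. Classical monocyte-like cells had 2372 CPM (2068 to 2534, median 2350) and nonclassical monocyte-like cells 2317 CPM (1863 to 2758). The next gates overlapped one another: inflammatory macrophage-like cells at 1892 CPM, other macrophages at 1715 CPM, secondary granule neutrophil-like cells at 1643 CPM, NK cell-like cells at 1603 CPM and type 2 dendritic cell-like cells at 1591 CPM. Resident macrophage-like cells, the leading gate of Trem2, were at 1275 CPM (1134 to 1760). Lymphocyte-like gates other than NK and plasma cells held far less, with 85.1 CPM in T cell-like, 49.7 CPM in B cell-like and 42.3 CPM in type 2 innate lymphoid-like cells. Plasma cell-like cells, a small gate of 65 cells, were at 449 CPM (0 to 597). Tyrobp was found in 99.2% of classical monocyte-like cells (98.0% after thinning) and in 16.8% of B cell-like cells (9.26% after thinning).

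Counted by UMIs, the groups of sorted cells contributed unequally. The sorted cells also included 845 granulocyte precursor-like and 368 stem and progenitor-like cells. Whether marrow had entered the digest was not tested, so these shares describe the sorted cells. Neutrophil-like cells of both gates were 35.3% of all cells and held 61.7% of the UMIs of Trem1, 1.20% of those of Trem2, 52.8% of those of Treml4 and 36.9% of those of Tyrobp. Macrophages held 54.0% of the Trem2 UMIs, and monocytes a further 17.7%. Although Treml4 was highest per UMI in nonclassical monocyte-like cells, most of its UMIs were thus in the far more numerous neutrophils, and both monocyte gates together held 17.03%. The mixed cells held 22.02% of the Trem1 UMIs, 22.9% of those of Trem2, 18.8% of those of Treml4 and 16.8% of those of Tyrobp, with 6.81% of the cells.

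**Figure D2:**
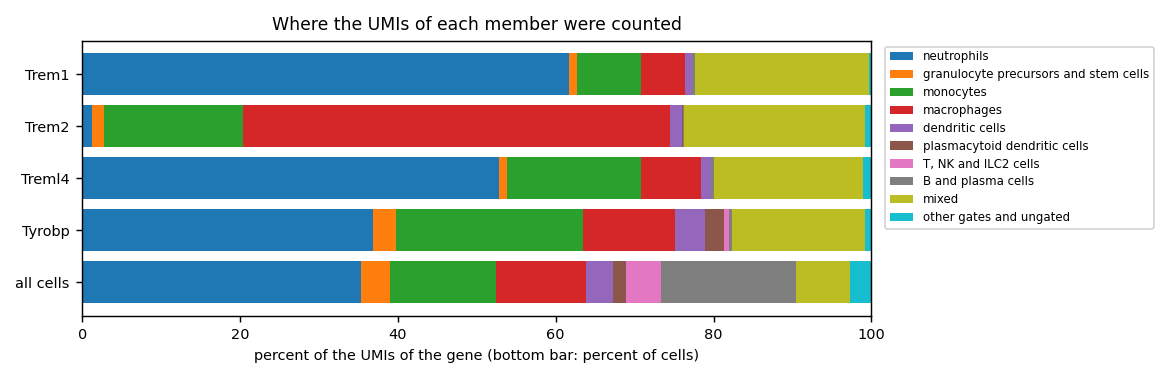
Percent of the UMIs of each member (bars) that were counted in each group of cells (colors), with the percent of cells in the bottom bar. Neutrophils hold 61.7% of the Trem1 UMIs and macrophages 54.0% of the Trem2 UMIs, and the mixed cells hold 16.8% to 22.9% of each member.

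Late and secondary granule neutrophil-like cells were compared library by library, with a gene called different where the ranges of the 6 libraries did not overlap. Trem1 was 4.52-fold higher in CPM in the late cells and Tyrobp 2.10-fold higher, both without overlap. Among 5825 genes with at least 10 CPM, 27.8% were called higher and 26.4% lower, so 2 members of the 3 that passed the filter were called in a comparison where such calls were common. Treml4 was 2.85-fold higher (41.1 against 14.4 CPM), in each of the 6 libraries, but its ranges overlapped, and Trem2 was under the filter. Late cells carried fewer UMIs in all, and per cell the picture differed. Trem1 was at 7.55 UMIs per late cell (6.33 to 10.6) and 4.99 UMIs per secondary granule cell (4.20 to 7.32), higher in 6 of 6 libraries with overlapping ranges. Tyrobp was at 22.2 UMIs per late cell (16.2 to 27.1) against 31.5 UMIs per secondary granule cell (23.1 to 38.8) and was higher in 0 of 6 libraries, so its direction turned with the scale. By UMIs per cell, 1.05% of genes were called higher and 75.4% lower, and no member was called. The totals were also taken without 14 neutrophil genes, which are the markers that define these 2 gates. Trem1 then remained higher in the late cells (1568 against 439 CPM), as did Tyrobp (4609 against 2774 CPM).

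A finer order was made by sorting the neutrophil-like cells of both gates into 10 bins by the share of their UMIs that came from the 7 secondary granule genes. Trem1 was at 1211 CPM in the bin with the least granule RNA, 1448 CPM in the third, 658 CPM in the sixth and 136 CPM in the last. Per cell it was at 5.64, 8.05, 7.28 and 2.67 UMIs in the same bins, highest in the fourth at 8.27, so Trem1 peaked inside the series on both scales and was lowest at the granule-rich end. Trem3, the neighboring receptor gene, had no direction that held on every scale. It was at 605 CPM in the first and 439 CPM in the last bin, but at 665 and 818 CPM without the 14 neutrophil genes in the total, and its UMIs per cell were 2.82 and 8.65, with 9.49 in the ninth. The pair of adjacent genes therefore went opposite ways per cell between the first and the last bin, whose median depths were 3690 and 16767 UMIs. In CPM of all UMIs both were lower in the last bin. Tyrobp was at 4154 CPM in the first and 1423 CPM in the last bin but had the most UMIs per cell in the seventh, at 35.0. Treml4 was at 64.6 CPM in the first and 10.0 CPM in the last bin, with 0.20 to 0.36 UMIs per cell and no steady direction.

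**Figure D3:**
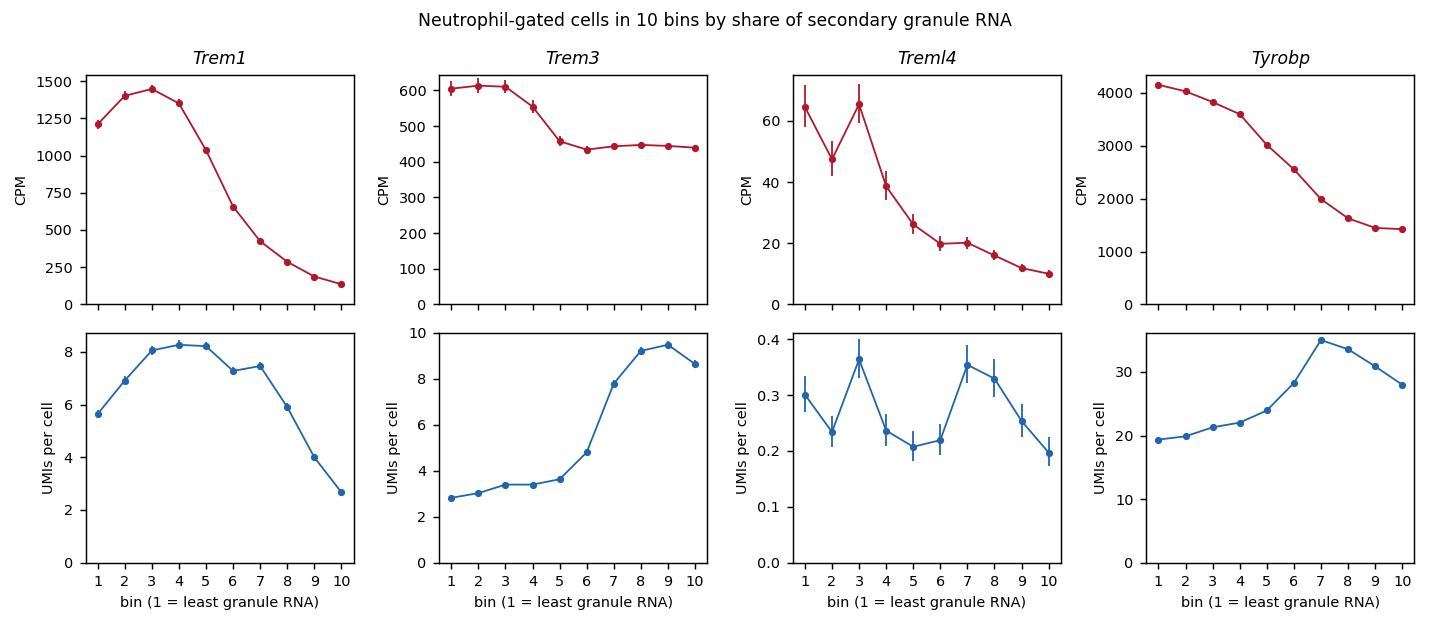
Neutrophil-gated cells in 10 bins from the least (1) to the most (10) secondary granule RNA, in CPM (top row) and UMIs per cell (bottom row) for Trem1, Trem3, Treml4 and Tyrobp, with exact Poisson 95% intervals. Trem1 is lowest in bin 10 on both scales, at 136 CPM and 2.67 UMIs per cell, whereas Trem3 per cell is higher in bin 10 than in bin 1.

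In nonclassical against classical monocyte-like cells, the receptors moved apart. Treml4 was 34.2-fold higher, without overlap, where 6.5% of 7897 genes were called higher. It passed the filter of 10 CPM only through the nonclassical gate, since classical monocyte-like cells held 7.75 CPM, so its call is a description and no support. Trem2 was at 19.5 CPM (9.38 to 46.3) against 82.7 CPM (71.6 to 99.6), a ratio of 0.236, and was called lower, as were 7.59% of genes. Trem1 was higher in 5 of 6 libraries and Tyrobp in 2 of 6, and neither was called. Nonclassical monocyte-like cells were shallower, with medians of 7264.5 against 16975.5 UMIs. In UMIs per cell the ratio was 0.860 for Trem1, higher in 3 of 6 libraries, and 0.473 for Tyrobp, higher in 0 of 6. Treml4 stayed higher per cell in 6 of 6 libraries and Trem2 in 0 of 6. Among the nonclassical monocyte-like cells, Trem1 was found in 63.6% of those with a Treml4 UMI and in 15.8% of those without, at median depths of 7784 and 6093 UMIs. The part of neutrophil RNA in these shares was not tested.

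Between classical monocyte-like and inflammatory macrophage-like cells, Trem2 was the only member called, and Treml4 was under the filter. The inflammatory gate also took cells scored as classical monocytes if they held its markers and a UMI of C1qa, C1qb or C1qc. The 2 gates were thus parted in part by macrophage genes, and a call between them is a description only. Trem2 was 2.66-fold higher in the macrophages, without overlap, where 8.26% of 7769 genes were called higher and 13.1% lower. That background moved with 1 library, from 642 genes called higher to 1008 without library 3. Tyrobp was lower in 6 of 6 libraries (1892 against 2372 CPM) but the ranges overlapped. From inflammatory to resident macrophage-like cells, Trem2 was 1.87-fold higher, and higher in 6 of 6 libraries with ratios of 1.21 to 2.78, but the ranges over libraries overlapped (327 to 627 against 151 to 516 CPM). Without library 2 they did not (327 to 461 against 151 to 265 CPM), which is a description only, since that library made the overlap. By UMIs per cell the ratio of Trem2 was 1.29, higher in 5 of 6 libraries. The median depths were 13480 UMIs in resident and 19812 UMIs in inflammatory macrophage-like cells. No member was called in this comparison, in which 15.5% of 7809 genes were called higher and 6.63% lower, with 1210 genes called higher over all libraries and 1832 without library 2. Tyrobp and Trem1 were lower in resident macrophage-like cells in 6 of 6 libraries.

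Trem1 in the mononuclear phagocytes was higher in cells with more secondary granule markers. For this split the mixed cells were returned to the gate they had scored for, so that the cells with the most granule markers include them. Among resident macrophage-like cells, Trem1 was at 22.7 CPM (10.7 to 41.8) in the 1640 cells with none of the 7 secondary granule markers, 252 CPM in the 379 cells with 1 or 2, and 363 CPM (290 to 408) in the 212 cells with 3 or more. S100a8, an abundant neutrophil gene, went from 275 to 6778 and 25232 CPM in the same cells. The same order held in inflammatory macrophage-like cells, with 65.2, 216 and 337 CPM of Trem1. In classical monocyte-like cells it was 79.3, 117 and 245 CPM, with S100a8 at 98.7, 531 and 20772 CPM. S100a8 was found in 8.73% of the monocyte-like cells with 1 or 2 markers. The share was 55.9% in such resident and 48.9% in such inflammatory macrophage-like cells. Median depth rose too, at 12742.5, 15771 and 27566 UMIs in the resident cells and 16679, 16801 and 22287 UMIs in the monocyte-like cells. Trem2 went the other way in resident macrophage-like cells, at 452, 327 and 228 CPM, and in classical monocyte-like cells, at 99.3, 78.8 and 68.5 CPM. In inflammatory macrophage-like cells Trem2 had no steady order, at 250, 187 and 197 CPM. In the converse split, neutrophil-like cells with 0 of 8 macrophage markers held 0.417 CPM of Trem2, those with 1 to 3 held 9.75 CPM, and those with 4 or more, which are among the mixed cells, held 131 CPM. In granule-free cells, the Trem1 ranges of classical monocyte-like cells (59.0 to 127 CPM) lay above those of resident macrophage-like cells. The part that neutrophil RNA played in the Trem1 level of macrophages was not tested.

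**Figure D4:**
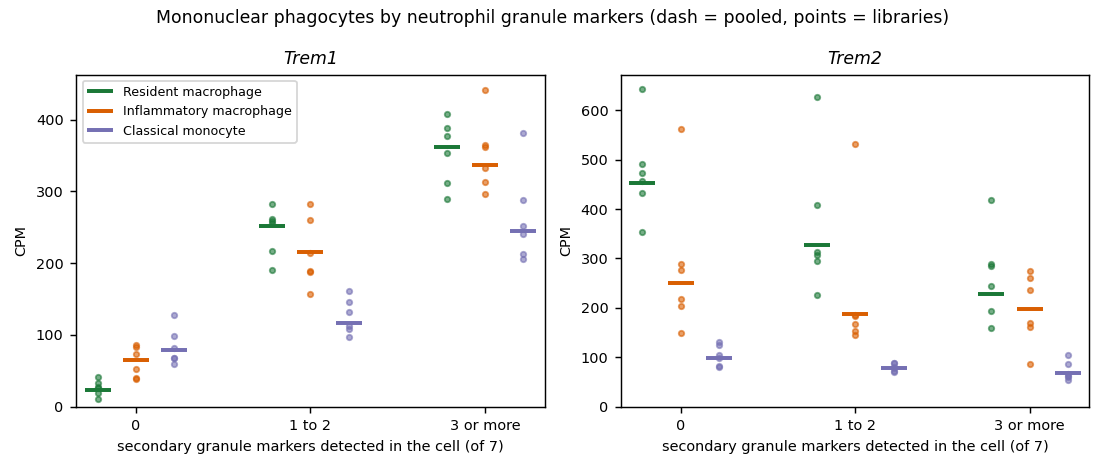
Trem1 (left) and Trem2 (right) in CPM for 3 mononuclear phagocyte gates (colors), split by how many of 7 secondary granule markers each cell held, mixed cells included, with points for libraries and dashes for pooled values. Trem1 in resident macrophages goes from 22.7 to 363 CPM with granule markers, and Trem2 from 452 to 228 CPM.

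Within the 3752 macrophage-like cells, Trem2 differed between cells with and without single genes. It was lower in cells with Cxcl9, an interferon-induced chemokine, at 132 CPM (95.5 to 209) against 365 CPM (269 to 563), with no overlap and in 6 of 6 libraries. It was also lower in cells with H2-Ab1, a class II antigen presentation gene, at 273 against 464 CPM. Trem2 was higher with H2-Ab1 in 0 of 6 libraries, but the ranges overlapped. Cells with Vsig4, a complement receptor of resident macrophages, had 496 CPM against 299 CPM, and cells with Gpnmb, a lysosomal glycoprotein gene, had 467 CPM against 306 CPM, each higher in 6 of 6 libraries with overlapping ranges. Spp1 (osteopontin) did not separate Trem2 levels, at 335 CPM with and 329 CPM without it, higher in 4 of 6 libraries. Nor did Arg1 (318 against 337 CPM, higher in 3 of 6), Cd163 (351 against 324 CPM, higher in 5 of 6) or Ccl8 (275 against 347 CPM, higher in 2 of 6), all with overlapping ranges. Fxyd2 (394 against 274 CPM) and Aqp1 (400 against 295 CPM) went with higher Trem2 in 6 of 6 libraries, also with overlap. Lyve1 did the same over all macrophages (403 against 290 CPM) but not within the resident gate (409 against 423 CPM), which it helps to define. Among the macrophages without any granule marker, the same directions were seen for Cxcl9 (151 against 404 CPM), H2-Ab1 (314 against 485 CPM), Vsig4 (562 against 334 CPM) and Gpnmb (518 against 353 CPM). There the ranges overlapped in each of these splits, for Cxcl9 too at 103 to 432 against 289 to 575 CPM. Tyrobp had another pattern and was lower in cells with Lyve1, at 1133 against 1804 CPM, with no overlap. Cxcl9 and Arg1 helped to define the inflammatory gate, and Vsig4, Cd163 and Lyve1 the resident gate, so these splits partly repeat the gates. How many of all genes lacked overlap in the splits was not counted, so a lack of overlap here is a description only. The splits also differ in depth, for example 20740 median UMIs with Cxcl9 and 14496 without.

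Cells with and without a cell cycle program were compared by the genes Mki67, Top2a, Birc5 and Stmn1. Classical monocyte-like cells with at least 3 of them had less of each member in CPM than those with none, but not of each member per cell. Trem1 was at 81.0 against 151 CPM, Trem2 at 71.7 against 94.0 CPM and Tyrobp at 1913 against 2810 CPM. In UMIs per cell Trem1 remained lower (2.07 against 2.28), as did Treml4 (0.106 against 0.181). Trem2 was higher per cell (1.83 against 1.42), as was Tyrobp (48.8 against 42.4). In secondary granule neutrophil-like cells, cycling cells had 144 CPM of Trem1 against 386 CPM, and 1254 CPM of Tyrobp against 2037 CPM. Here too Trem1 was lower per cell (4.46 against 5.33 UMIs) and Tyrobp higher (38.9 against 28.1 UMIs). Cycling cells were deeper, with medians of 24790 and 14548 UMIs in the classical monocyte-like gate and 28683 and 11995 UMIs in the secondary granule gate.

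Most receptor-positive cells also held the adaptor. Tyrobp was found in 99.5% of late neutrophil-like cells with Trem1 and in 91.2% of those without, at median depths of 5281 and 3224 UMIs, in 98.8% and 92.8% of resident macrophage-like cells with and without Trem2, and in 99.2% and 73.7% of nonclassical monocyte-like cells with and without Treml4. Detection of Trem1 and Trem2 was not split between cells of 1 gate. In resident macrophage-like cells, however, Trem1 was found in 9.45% of those with no granule marker and in 53.8% of those with 1 to 2. The part of neutrophil RNA in the shares that follow was not tested. Trem1 was found in 20.7% of resident macrophage-like cells with Trem2 and in 18.9% of those without, in 54.2% and 53.4% of inflammatory macrophage-like cells, and in 65.5% and 59.6% of classical monocyte-like cells, where the cells with Trem2 were the deeper ones in each gate.

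Other genes of the pathway were taken from lists of symbols. Of the rest of the family, Trem3 was highest in late neutrophil-like cells (543 CPM, with 439 CPM in the secondary granule gate, or 724 and 741 CPM without the 14 neutrophil genes), Treml2 in B cell-like cells (65.8 CPM), and Treml1, a platelet receptor gene, reached only 3.38 CPM in stem and progenitor-like cells. All 19 adaptor and kinase genes were in the table, and most led outside the leading classes of the receptors. The highest gate was late neutrophil-like cells for 2 of them, nonclassical monocyte-like cells for 3 and resident macrophage-like cells for 0, against 4 in plasmacytoid dendritic cell-like cells, 3 in T cell-like cells and 3 in B cell-like cells. Lyn, a Src family kinase that phosphorylates such adaptors (1799 CPM), and Bcl10, a CARD9 partner (146 CPM), were highest in late neutrophil-like cells. The kinase gene Fgr (683 CPM) and the phosphatase gene Ptpn6 (285 CPM) were highest in nonclassical monocyte-like cells. Syk itself was highest in B cell-like cells (904 CPM), with 516 CPM in late neutrophil-like and 314 CPM in resident macrophage-like cells. Hcst, the adaptor gene beside Tyrobp, was highest in T cell-like cells at 496 CPM, where Tyrobp was at 85.1 CPM. In NK cell-like cells both adaptors were present, with 443 CPM of Hcst.

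Of 17 other receptors listed as possible partners of Tyrobp, 16 were measured, and they were spread over several cell types. Which adaptor each of them uses in these cells was not tested. Late neutrophil-like cells led for Cd300ld (402 CPM), Cd300lb (287 CPM) and Sirpb1b (195 CPM). Nonclassical monocyte-like cells led for Cd300e (253 CPM), which is one of their gating markers, Sirpb1c (125 CPM) and Sirpb1a (94.2 CPM). Clec5a was highest in resident macrophage-like cells (86.8 CPM), with 83.1 CPM in secondary granule neutrophil-like cells. Siglech, a gating marker of plasmacytoid dendritic cells, was at 1596 CPM there, and 4 receptor genes, all of the killer lectin-like family, were highest in NK cell-like cells. The Sirpb1, Pilrb and Klra genes have near-identical copies, so the split of reads within each is uncertain.

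**Figure D5:**
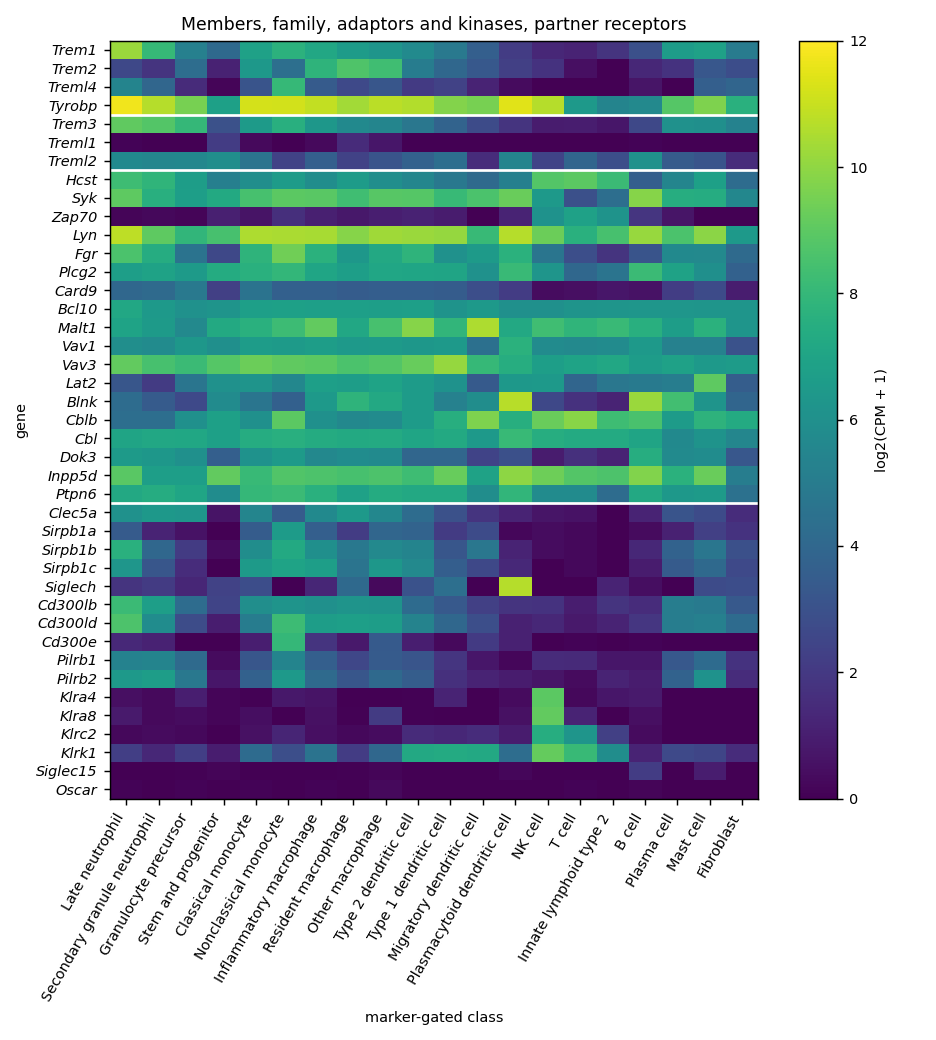
Heatmap of log2(CPM + 1), pooled over libraries, for the members, the rest of the family, adaptors and kinases, and partner receptors (rows, in blocks parted by white lines) in 20 marker-gated classes (columns). Tyrobp is bright in most myeloid columns and NK cells. Some receptors listed as its possible partners are bright in few columns, such as Siglech in plasmacytoid dendritic cells at 1596 CPM. Others, such as Cd300lb, are spread over several myeloid columns, and Oscar is bright in none.

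Ligand and output genes were described in the same way. Of the 8 genes of TREM-1, the cytokine genes Il1b (5487 CPM) and Cxcl2 (2726 CPM) were highest in late neutrophil-like cells. The other cytokine genes led elsewhere among the described gates, Tnf (374 CPM) and Ccl2 (2890 CPM) in mast cell-like cells and Il6 in fibroblast-like cells (758 CPM). Ccl3 was highest in classical monocyte-like cells (232 CPM, libraries 90.9 to 321), close to NK cell-like cells (223 CPM). Il6 and Ccl3 were also among the leading genes of the basophil-like gate, which was too small to be described (36 cells). Hmgb1, which encodes a nuclear alarmin, was highest in B cell-like cells (1777 CPM). Pglyrp1, which encodes a TREM-1 ligand, was highest in secondary granule neutrophil-like cells (2290 CPM) and was at 1660 CPM in late cells. Of the 11 genes of the TREM-2 ligand and program list, the cathepsin genes Ctsb (2642 CPM) and Ctsd (931 CPM) were highest in resident macrophage-like cells. Apoe, which encodes a TREM-2 ligand (5388 CPM), Lgals3 (2770 CPM) and Lpl (337 CPM) were highest in the macrophages of neither program, and Spp1 in inflammatory macrophage-like cells (1490 CPM). The other 5 led outside the macrophages, with Cd9 in late neutrophil-like cells (1335 CPM), Fabp5 (4634 CPM) and Cd63 (1002 CPM) in migratory dendritic cell-like cells, and Clu (1079 CPM) and Gpnmb (115 CPM) in fibroblast-like cells. Of the proteases that can shed TREM-2, Adam10 was highest in B cell-like cells (426 CPM) and Adam17 in the macrophages of neither program (174 CPM). Of the osteoclast list, Acp5 was highest in nonclassical monocyte-like cells (92.1 CPM, libraries 21.4 to 324) and Ctsk in fibroblast-like cells (183 CPM). Atp6v0d2 led in mast cell-like cells (105 CPM), Dcstamp in type 2 dendritic cell-like (40.4 CPM) and Ocstamp in type 1 dendritic cell-like cells (13.7 CPM). Calcr, the calcitonin receptor of mature osteoclasts, reached 0.06 CPM at most.

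Over the 20 classes, the genes whose levels were most like those of a member were named by Pearson's r of log2(CPM + 10) among 12328 genes. These correlations are descriptions across classes that share libraries, and carry no test. Trem1 was followed most closely by Slc16a3, Cd300lb, Arg2 and Csf3r (0.96 to 0.97) and by Pilra, of which Csf3r helped to define its leading gate. Trem2 was followed by C3ar1, Fam213b, Serpinb8 and Gm5431 (0.96 each) and Rab5c (0.95), and Tyrobp by Fcer1g (0.94), the adaptor chain of Fc receptors, then Fgr (0.89), Cers6, Cd300lf and Sirpa. Treml4 was followed by Acta2 (0.94), Adgrl3 (0.91), Tgm3 and Rpl3l (0.89) and C130050O18Rik (0.86), an order that rests largely on the single small nonclassical gate.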

How the data were processed

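The authors sorted CD45+ synovial cells and sequenced Chromium 3′ version 3.1 libraries. Per the labels, reads were processed with Cell Ranger 7 on mm10, and the methods name SoupX for ambient RNA and DoubletFinder for doublets. The authors deposited whole UMI counts, all samples in 1 table, not scaled for depth. No doublet caller was run again. The library numbers of the barcodes carry no sample, so no treatment comparison was made and no test was run.

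The members, gene lists and comparisons were chosen with earlier results of these data known, and the scoring rule of the gates was set after the data had been seen. A cell took the class with the highest marker score, each marker scaled to its 90th percentile, if at least 3 markers were detected, and 526 cells stayed ungated. Neutrophil-gated cells with at least 4 of 8 macrophage markers, and mononuclear cells with at least 4 of 7 secondary granule markers, were called mixed. Inflammatory macrophages needed at least 2 of their markers and a UMI of C1qa, C1qb or C1qc. They were drawn from cells that had scored highest as macrophages or as classical monocytes. Resident macrophages needed at least 3 of their markers and were drawn from cells scored as macrophages. Gates under 50 cells were not described. Comparisons covered genes with at least 10 CPM in either gate. Named genes are the members, the fixed lists (those sharing a highest class with a member, up to 4) and the 5 genes most like each member. Genes outside these rules, such as S100a8 and Syk, and single genes of the macrophage splits were chosen after values were seen. One gene of the adaptor and kinase list is not reported here. Sequences are from RefSeq (GRCm38.p6), where 3 of 4 members matched. Python 3.11.15, numpy 2.4.6, scipy 1.17.1, pandas 2.3.3, scanpy 1.11.5 and matplotlib 3.10.9 were used. Alternatives were clusters in place of gates, stricter gates, means over cells, library medians, thinning, no filter, a 2-fold minimum, pseudocount 1 and leaving out each library.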

Additional observations from a re-analysis of the deposited data

How the results depend on the processing

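No paired analysis was possible because the barcodes link no cell to a sample of either treatment group, and only gates could be compared within libraries. Over the alternatives named above, 42 values were counted as unmoved and 30 as moved. For CPM, moved meant outside the Poisson interval of the main value. That interval is narrower than the range over libraries, with 1165 to 1186 CPM against 1115 to 1346 CPM for Trem1 in late neutrophils. Counts of genes have no interval, and a change from 1617 to 2040 was counted as unmoved. With Leiden clusters in place of gates, Trem1 in late neutrophils was 675 CPM, Trem2 in macrophages 276 CPM and Treml4 in nonclassical monocytes 331.5 CPM. That late neutrophil class took in 2 clusters whose most common gate was the mixed one. They held 1979 cells at 395 CPM (62.4% mixed) and 524 cells at 383 CPM (41.6% mixed). The class also took in 2 further clusters at 731 and 331 CPM. Stricter gates gave 341 CPM of Trem2 and 308 CPM of Treml4. Means over cells gave 1300 CPM of Trem1, 355 CPM of Trem2, 323 CPM of Treml4 and 2507 CPM of Tyrobp in classical monocytes, whose library median was 2350 CPM. Leaving out 1 library at a time gave 1150 to 1194 CPM of Trem1, 313 to 354 CPM of Trem2, 233 to 294 CPM of Treml4 and 2321 to 2412 CPM of Tyrobp.

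Thinning gave shares of cells of 86.6% for Trem1, 54.5% for Trem2, 47.4% for Treml4 and 98.0% for Tyrobp in the same gates (resident macrophages for Trem2). With a pseudocount of 1, 2 of the 5 genes most like Trem1, 3 for Trem2 and 1 for Treml4 were among the 5 named. The counts of genes called higher were 1617 in late neutrophils, 513 in nonclassical monocytes, 642 in inflammatory and 1210 in resident macrophages. A 2-fold minimum gave 858 in late neutrophils, 312 in inflammatory and 526 in resident macrophages. Leaving out 1 library gave 1663 to 1795, 568 to 763, 733 to 1008 (without library 3) and 1283 to 1832 (without library 2). Alternatives chosen after seeing the data gave 61 genes called higher in late neutrophils by UMIs per cell. They also gave 1568 CPM of Trem1 without neutrophil genes in the total, and, with mixed cells returned, 929 CPM of Trem1 and 312 CPM of Trem2. Beyond what these constructions show, the cause was not tested. Treml4 rests on 380 UMIs from 156 cells in its leading gate.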

Other observations

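The table also holds entries written as 0, taken here for counts that were emptied by the ambient RNA correction. There were 547 such entries for Trem1, 301 for Trem2, 51 for Treml4 and 1138 for Tyrobp. Of the Tyrobp entries, 819 were in B cell-like cells, where they made up 46.6% of the entries of the gene. For Trem1 the share of its entries that were 0 was 44.6% in B cell-like and 0.24% in late neutrophil-like cells. Where these entries come from was not tested.

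In clusters made without the gates, 2 clusters of 2782 and 2232 mostly late neutrophil-gated cells held 1483 and 1439 CPM of Trem1 and 4264 and 3741 CPM of Tyrobp. A cluster of 142 cells with a median of 2118 UMIs held 669 CPM of Trem2, above any gate, and a cluster of 129 cells named by nonclassical monocyte markers held 332 CPM of Treml4.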
